A study of Mus musculus with 9 samples.

Results

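The genes of the proteasome were followed in cultured mouse neurons in which Tdp-43, an RNA-binding protein encoded by Tardbp, was knocked down. The members were all genes whose symbol starts with Psma, Psmb, Psmc, Psmd or Psme on probe sets that name a single gene, apart from 1 symbol that is not analysed here. This gave 43 of the 22103 genes on the array, with 650 probe sets. Of these, 40 could be tested, against 16770 tested genes in all. The arrays were Affymetrix Mouse Exon 1.0 ST arrays, on which each probe set covers a stretch of an exon, and the deposited values are log2 intensities. A gene value averages the log2 values of those of its probe sets whose mean over all 9 arrays reached the table median, 6.07, and a gene was tested with at least 3 such probe sets. A gene was called where limma's p-value, adjusted by the Benjamini-Hochberg method over the 16770 genes, was under 0.05.

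The groups were shTdp-43-1 (3 arrays), shTdp-43-2 (3 arrays) and shCont (3 arrays). shTdp-43-1 and shTdp-43-2 are different short hairpin RNAs against mouse Tdp-43, and shCont is a control hairpin. The cells of all groups were primary cortical neurons from C57BL/6 embryos at embryonic day 15, exposed to AraC early in culture, infected with lentivirus on day 5 for 4 h and harvested on day 11. The series' own design text speaks of motor neurons instead. Nothing in the labels says whether replicates came from separate cultures, so p-values measure the spread between these arrays, which may be technical.

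The proteasome is the protease that degrades proteins tagged with ubiquitin. Its 20S core is a barrel of alpha rings, which gate entry, and beta rings, which hold the catalytic sites. The 19S particle binds at the ends of the barrel, where its ATPases unfold the substrate and its lid removes the ubiquitin. Other caps, the PA28 and PA200 activators, open the core without ubiquitin, and interferon-inducible beta subunits can take the place of the constitutive catalytic ones.

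Tardbp, the target of the hairpins, was low on every array of both knockdown groups. Its values were 7.84, 8.23 and 8.55 with shTdp-43-1, 8.22, 8.58 and 7.90 with shTdp-43-2, and 9.77, 9.94 and 10.06 with shCont. The knockdown groups did not overlap with shCont, and Tardbp was at 30.4% of the control level with shTdp-43-1 and at 30.9% with shTdp-43-2 (limma's adjusted p was 0.000349 and 0.000109).

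Most genes of the constitutive proteasome did not pass the test: 2 of the 31 tested were called in some comparison. The other 4 of the 6 members called in some comparison (Psme4, Psme1, Psmb10 and Psmd10) are activators, an inducible subunit or a chaperone. They come from 9 tested members outside the constitutive core. The share of all tested genes called in at least 1 comparison was not counted, so these pooled counts have no background. In each single comparison 7.5% of the members were called in either direction, below the share of all tested genes. With shTdp-43-1, 0 of 40 members were called higher and 3 lower (Psma7, Psmd11 and Psme4), which is 7.5% of the members, where 11.1% of all tested genes were called and 5.96% were called lower. With shTdp-43-2, 0 were called higher and 3 lower (Psmb10, Psme1 and Psme4), where 21.9% of all tested genes were called and 14.1% were called lower. In the mean of both hairpins against shCont, 3 members were called lower (Psma7, Psmb10 and Psme4) and 0 higher, with 19.3% of all tested genes called and 11.9% called lower. Between the hairpins, shTdp-43-2 minus shTdp-43-1, 2 members were called higher (Psmd10 and Psmd11) and 1 lower (Psmb10), with 11.5% of all tested genes called, 4.22% higher and 7.31% lower. All 4 comparisons are parts of one fit and share arrays, so their counts are not independent of each other. The remaining 34 tested members were called in none of them.

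**Figure D1:**
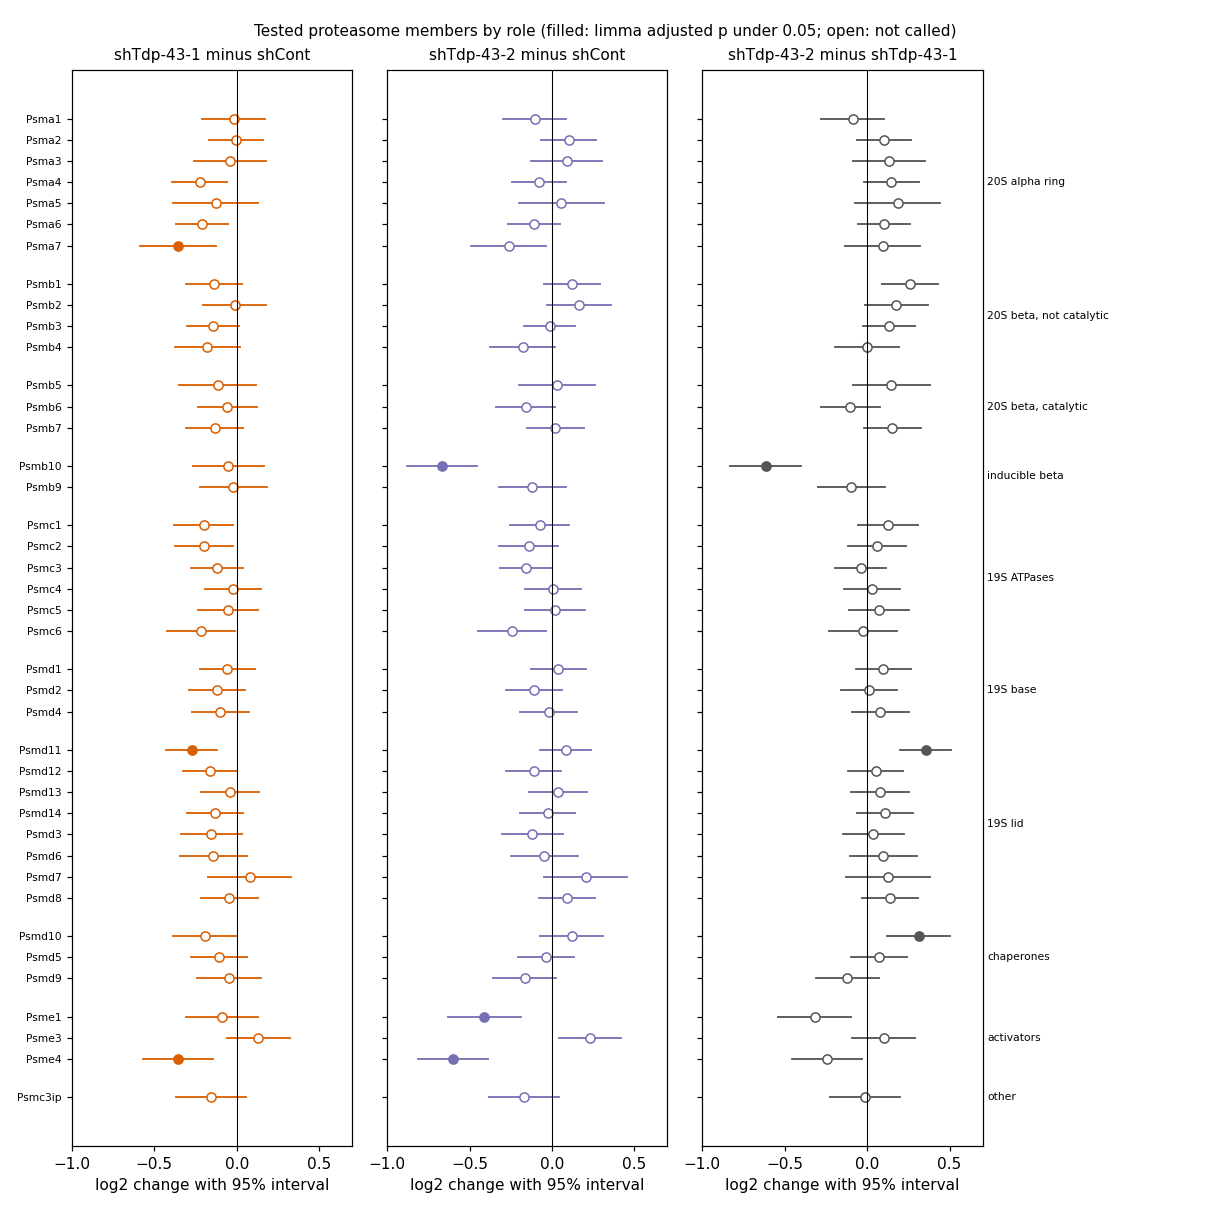
Log2 change (horizontal axis) with its 95% interval for the 40 tested members, grouped by role, for shTdp-43-1 minus shCont (left), shTdp-43-2 minus shCont (middle) and shTdp-43-2 minus shTdp-43-1 (right). Filled points passed limma's adjusted p of 0.05. In the left panel 38 of 40 points lie below 0, most of them by less than their interval, and in the middle panel the points furthest to the left are Psmb10, Psme4 and Psme1.

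Among the activators, Psme4 was called lower with both hairpins and Psme1 with shTdp-43-2. Psme4 encodes PA200, the cap of the core that in mice is known for its part in spermatogenesis and in the degradation of acetylated histones. Its RefSeq promoter window (GRCm38.p6, chr11:30771525-30771824, plus strand, 300 bases around the annotated start) is shown because Psme4 fell with both hairpins. Capitals mark TGACNNNGC read on the opposite strand, the core of the element bound by Nfe2l1 and Nfe2l2, which runs across the annotated start. The window of Psme1, the other activator that was called, is shown beside it (chr14:55578244-55578543, plus strand). There, capitals mark the sequence GAAA-NN-GAAA read on the opposite strand, the core of the interferon-stimulated response element, downstream of the annotated start.
Psme4: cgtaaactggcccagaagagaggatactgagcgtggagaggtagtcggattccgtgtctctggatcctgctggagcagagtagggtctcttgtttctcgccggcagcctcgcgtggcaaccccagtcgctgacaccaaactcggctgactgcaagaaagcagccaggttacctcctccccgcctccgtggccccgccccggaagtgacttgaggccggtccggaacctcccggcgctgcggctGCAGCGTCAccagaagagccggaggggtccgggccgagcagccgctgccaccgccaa
Psme1: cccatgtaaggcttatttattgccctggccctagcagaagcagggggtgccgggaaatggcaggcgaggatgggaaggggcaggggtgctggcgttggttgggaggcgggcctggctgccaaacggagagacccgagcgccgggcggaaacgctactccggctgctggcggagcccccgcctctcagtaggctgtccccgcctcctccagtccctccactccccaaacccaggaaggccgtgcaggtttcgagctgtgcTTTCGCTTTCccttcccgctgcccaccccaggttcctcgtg

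Both motifs were searched on either strand in the windows of the members, 39 windows for 36 of the 43 genes. TGACNNNGC was in 6 of 39 windows (15.4%), those of Psmb5, Psmb6, Psmc6, Psmd9, Psmd12 and Psme4, and in 12.4% of all 32851 windows. GAAA-NN-GAAA was in 4 of 39 (10.3%), those of Psmb3, Psmd4, Psmd9 and Psme1, and in 3.44% of all windows. The windows of Psmb10 and Psme2, which were read out along with those of Psme4 and Psme1, held neither motif. The second of these motifs was chosen after the values of the members were seen, and a match is no evidence of binding.

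Psme4 had log2 values of 9.88, 9.84 and 9.96 with shTdp-43-1, of 9.56, 9.86 and 9.54 with shTdp-43-2, and of 10.19, 10.33 and 10.24 with shCont. All 6 knockdown arrays lay below all 3 control arrays, and replicate 2 of shTdp-43-2 lay among the shTdp-43-1 arrays. Psme4 was at 65.9% of its shCont level under shTdp-43-2 (log2 change -0.60 ± 0.0975 SE, n = 3 against 3, with a limma adjusted p of 0.00121), and this call held under all 19 alternative settings. With shTdp-43-1 it was at 78.1% (log2 change -0.36 ± 0.0975 SE, with a limma adjusted p of 0.0374). That call was lost under 12 of 19 settings, with an adjusted p of up to 0.131. It was lost when any 1 of the shTdp-43-1 arrays (adjusted p = 0.0683, 0.118 and 0.070 without replicates 1, 2 and 3) or any 1 of the shCont arrays was left out (0.0799, 0.131 and 0.085). The mean of the hairpins was 0.48 below shCont on the log2 scale, at 71.7% (limma adjusted p = 0.00266). The difference between the hairpins was -0.24 (95% interval -0.46 to -0.03, limma adjusted p = 0.138), and it was called only without replicate 2 of shTdp-43-2 (-0.35, adjusted p = 0.0287).

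The lower level of Psme4 was seen in most of its probe sets, whose positions along the gene were not examined. Of its 64 kept probe sets, 58 lay below 0 with shTdp-43-1 and 62 with shTdp-43-2, with medians of -0.35 and -0.62. Tested singly over all 628416 probe sets of that brightness, 7 of its probe sets were called lower with shTdp-43-2, where 1.03% of all probe sets were called lower. With shTdp-43-1, 0 were called, where 0.0843% of all probe sets were called in either direction.

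Psme1 encodes the alpha subunit of PA28, a cap of the core induced by interferon gamma. Its values were 10.86, 10.71 and 10.46 with shTdp-43-1, 10.35, 10.40 and 10.32 with shTdp-43-2, and 10.84, 10.78 and 10.69 with shCont. The shTdp-43-2 arrays lay below all others, while the shTdp-43-1 arrays spread across the range of shCont and below it. Psme1 fell to 75.3% of its shCont level under shTdp-43-2 (log2 change -0.41 ± 0.101 SE, with a limma adjusted p of 0.013). Without replicate 1 of shCont this adjusted p was 0.0564, and with the median of the probe sets as gene value it was 0.0675. With shTdp-43-1 the change was -0.09 (95% interval -0.31 to 0.13, limma adjusted p = 0.579). The difference between the hairpins, -0.32, did not pass (limma adjusted p = 0.0634), though it did without replicate 3 of shTdp-43-1 (-0.43, adjusted p = 0.0218). In the mean of the hairpins the change was -0.25 (limma adjusted p = 0.0674), which passed without replicate 1 of shTdp-43-1 (-0.30, adjusted p = 0.023). Between the hairpins, all 14 probe sets of Psme1 were lower with shTdp-43-2.

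Psme2, the beta subunit of the same PA28 ring, lies close to Psme1, with only Emc9 between them. It had 2 kept probe sets and was therefore below the minimum for testing. The first read 9.72, 9.44 and 9.41 with shTdp-43-1, 9.37, 9.31 and 9.14 with shTdp-43-2, and 9.84, 9.67 and 9.61 with shCont. The other read 11.45, 11.36 and 11.30 with shTdp-43-1, 11.32, 11.13 and 11.21 with shTdp-43-2, and 11.70, 11.52 and 11.52 with shCont. On both probe sets every shTdp-43-2 array lay below every shCont array. The shTdp-43-1 arrays also lay below every shCont array on the brighter probe set and overlapped with shCont on the first. Where genes with a single kept probe set were tested as well (20143 genes), Psme2 was called lower with shTdp-43-2 (log2 change -0.40 ± 0.0942 SE, with a limma adjusted p of 0.0199), and with shTdp-43-1 the change was -0.20 (adjusted p = 0.242). Another 13 probe sets name Psme2 together with its near-identical copy Psme2b, and these cannot tell the 2 genes apart. All 10 of them that were bright enough lay below 0 with either hairpin, with medians of -0.28 with shTdp-43-1 and -0.36 with shTdp-43-2, and 0 were called.

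Psme3, the PA28 gamma subunit of the nucleus, was measured at 11.54, 11.58 and 11.62 with shTdp-43-1, 11.59, 11.83 and 11.61 with shTdp-43-2, and 11.37, 11.50 and 11.47 with shCont. All knockdown arrays lay above all control arrays, yet the changes of 0.13 and 0.23 with the first and the other hairpin did not pass the test (limma adjusted p = 0.343 and 0.0815). Psme3 was picked for mention after its values were seen.

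Among the catalytic subunits, the inducible Psmb10 fell with shTdp-43-2, and it differed between the hairpins. Psmb10 (beta2i, also known as MECL-1) replaces the constitutive Psmb7 in the immunoproteasome. Its values were 9.61, 9.49 and 9.35 with shTdp-43-1, 8.81, 9.001 and 8.79 with shTdp-43-2, and 9.64, 9.54 and 9.43 with shCont. The shTdp-43-2 arrays stood apart from both other groups, and the shTdp-43-1 and shCont arrays overlapped. Psmb10 was at 63.0% of its shCont level under shTdp-43-2 (log2 change -0.67 ± 0.0976 SE, with a limma adjusted p of 0.000666), called under all 19 alternative settings. With shTdp-43-1 the change was -0.05 (95% interval -0.26 to 0.16, limma adjusted p = 0.763). The difference between the hairpins was -0.62 ± 0.0976 SE (limma adjusted p = 0.00232). Psmb10 was also called in the mean of the hairpins (-0.36, limma adjusted p = 0.0127), a call lost without replicate 1 of shCont (adjusted p = 0.0768), without replicate 2 of shCont (0.0519) and with the median of the probe sets (0.0515).

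All 8 kept probe sets of Psmb10 were lower with shTdp-43-2 (median -0.70), and 2 of them were called singly. With shTdp-43-1, 6 of the 8 lay below 0 (median -0.04). Psmb9 (beta1i), the inducible counterpart of Psmb6, was dim and was not called. Its values were 7.57, 7.54 and 7.38 with shTdp-43-1, 7.36, 7.30 and 7.54 with shTdp-43-2, and 7.59, 7.56 and 7.42 with shCont, so all 3 groups overlapped. The log2 change of Psmb9 was -0.02 for the first hairpin and -0.12 for the other (limma adjusted p = 0.898 and 0.411).

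The constitutive catalytic subunits were not called in any comparison. Psmb5 carries the chymotrypsin-like site, Psmb6 the caspase-like site and Psmb7 the trypsin-like site. Psmb5 read 12.09, 12.17 and 12.29 with shTdp-43-1, 12.17, 12.50 and 12.33 with shTdp-43-2, and 12.14, 12.43 and 12.33 with shCont. Its change was -0.12 with shTdp-43-1 (95% interval -0.35 to 0.12) and 0.03 with shTdp-43-2 (95% interval -0.20 to 0.26). These intervals bound the change of Psmb5 and do not show that it is absent. Psmb6 read 11.03, 11.15 and 10.92 with shTdp-43-1, 10.90, 10.93 and 10.96 with shTdp-43-2, and 11.15, 11.02 and 11.09 with shCont. The shTdp-43-2 arrays of Psmb6 lay just below those of shCont (change -0.16, 95% interval -0.34 to 0.02), and with shTdp-43-1 the groups overlapped (-0.06, 95% interval -0.24 to 0.12). Psmb7 read 11.38, 11.35 and 11.40 with shTdp-43-1, 11.45, 11.65 and 11.49 with shTdp-43-2, and 11.45, 11.53 and 11.56 with shCont. Here the shTdp-43-1 arrays lay below both other groups (change against shCont -0.13, 95% interval -0.31 to 0.04), and the shTdp-43-2 arrays overlapped with shCont (0.02, 95% interval -0.15 to 0.19).

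**Figure D2:**
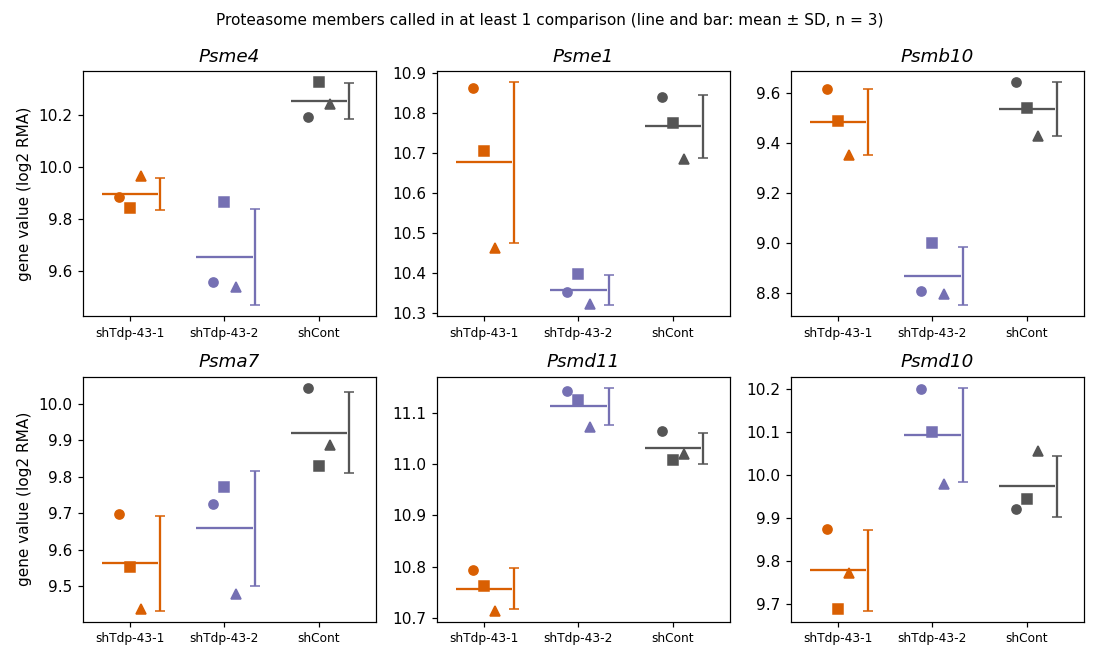
Log2 gene value (vertical axis) on each array for the 6 members called in at least 1 comparison, with shTdp-43-1, shTdp-43-2 and shCont from left to right. Circles, squares and triangles are replicates 1, 2 and 3, lines are means and bars are SDs (n = 3), and each panel has its own axis range. Psme4 is lower in both knockdown groups, Psmb10 and Psme1 are lowest with shTdp-43-2, and Psmd11 and Psmd10 are lowest with shTdp-43-1.

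Of the 14 constitutive 20S genes, Psma7 was the only one called against shCont. It encodes the alpha4 subunit of the outer rings. Psma7 read 9.70, 9.55 and 9.44 with shTdp-43-1, 9.73, 9.77 and 9.48 with shTdp-43-2, and 10.04, 9.83 and 9.89 with shCont. Every knockdown array lay below every control array. It was at 78.1% of its shCont level under shTdp-43-1 (log2 change -0.36 ± 0.104 SE, with a limma adjusted p of 0.0485) and at 83.4% with shTdp-43-2 (-0.26 ± 0.104 SE, with a limma adjusted p of 0.0991). In the mean of the hairpins it was called (-0.31, limma adjusted p = 0.0333). All 9 probe sets of Psma7 were below 0 with each hairpin.

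The calls of Psma7 lay close to the threshold. With shTdp-43-1 the call was lost under 12 of 19 settings, with an adjusted p of up to 0.174. Among single arrays, it was lost without replicate 2 (adjusted p = 0.121) or 3 (0.164) of shTdp-43-1, without replicate 1 (0.057) or 2 (0.0543) of shTdp-43-2, and without replicate 1 (0.174), 2 (0.0815) or 3 (0.0951) of shCont. In the mean of the hairpins it was lost without replicate 2 (0.0576) or 3 (0.070) of shTdp-43-1 and without replicate 1 (0.162), 2 (0.0595) or 3 (0.0782) of shCont.

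The other alpha ring genes, Psma1 to Psma6, changed by -0.23 to -0.003 with shTdp-43-1 and were not called. The non-catalytic beta genes Psmb1 to Psmb4 were not called either, with changes of -0.18 to -0.01 with shTdp-43-1 and of -0.18 to 0.16 with shTdp-43-2. Over the 14 constitutive 20S genes, 14 lay below 0 with shTdp-43-1 (median -0.13) and 7 with shTdp-43-2 (median 0.002).

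In the 19S particle, the lid subunit Psmd11 had the 2 hairpins on opposite sides of the control. Psmd11 (Rpn6) is the subunit that clamps the 19S particle to the core. Its values were 10.79, 10.76 and 10.71 with shTdp-43-1, 11.14, 11.12 and 11.07 with shTdp-43-2, and 11.06, 11.01 and 11.02 with shCont. The 3 groups did not overlap at all. Psmd11 fell to 82.7% of its shCont level under shTdp-43-1 (log2 change -0.27 ± 0.0711 SE, with a limma adjusted p of 0.031), and its change of 0.08 with shTdp-43-2 did not pass (limma adjusted p = 0.459). Between the hairpins it differed by 0.36 ± 0.0711 SE (limma adjusted p = 0.00833), higher in all 3 shTdp-43-2 arrays. The call against shCont was lost under 9 of 19 settings, among them without replicate 2 (adjusted p = 0.087) or 3 (0.101) of shTdp-43-1 and without replicate 1 (0.114), 2 (0.0816) or 3 (0.0741) of shCont. The difference between the hairpins was lost under 1 of 19, the one without a filter on dim probe sets (0.0521). Of the 22 probe sets of Psmd11, 20 were below 0 with shTdp-43-1 and 4 with shTdp-43-2.

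Psmd10 (gankyrin), a chaperone of 19S assembly and not a subunit of the finished particle, had a like order of groups. It read 9.88, 9.69 and 9.77 with shTdp-43-1, 10.20, 10.10 and 9.98 with shTdp-43-2, and 9.92, 9.94 and 10.06 with shCont. The shTdp-43-1 arrays were lowest, and the shTdp-43-2 arrays overlapped with shCont. Neither hairpin differed from shCont by the test (-0.19 with shTdp-43-1 and 0.12 with shTdp-43-2, limma adjusted p = 0.174 and 0.378). The difference between the hairpins was 0.31 ± 0.0872 SE (limma adjusted p = 0.0388). It was lost under 12 of 19 settings, among them without replicate 2 (adjusted p = 0.139) or 3 (0.101) of shTdp-43-1, without replicate 1 (0.160) or 2 (0.0851) of shTdp-43-2 and without replicate 1 (0.0548) or 2 (0.0621) of shCont. All 8 probe sets of Psmd10 lay below 0 with shTdp-43-1, and 0 of 8 with shTdp-43-2.

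The rest of the 19S particle was not called. The 6 ATPases, Psmc1 to Psmc6, which form the unfolding ring, changed by -0.22 to -0.02 with shTdp-43-1 and by -0.24 to 0.02 with shTdp-43-2. The non-ATPase base genes Psmd1, Psmd2 and Psmd4, which include the scaffold and a ubiquitin receptor, changed by -0.12 to -0.06 with shTdp-43-1 and by -0.11 to 0.04 with shTdp-43-2. The other lid genes were Psmd3, Psmd6, Psmd7, Psmd8, Psmd12, Psmd13 and Psmd14, of which Psmd14 is the deubiquitinase of the lid. Over all 17 constitutive 19S genes, 16 lay below 0 with shTdp-43-1 (median -0.12) and 10 with shTdp-43-2 (median -0.03). The chaperones Psmd5 and Psmd9 were not called.

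Psmc3ip is taken by its symbol, but it is known as a meiotic recombination factor and not as a proteasome subunit. It was not called in any comparison, with log2 changes of -0.16 for shTdp-43-1 and -0.17 for shTdp-43-2. The testis-type alpha subunit Psma8 had 2 of 11 probe sets bright enough to keep, and the thymus-type Psmb11 had 0 of 2, so neither was tested in the comparisons above.

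Small shifts ran through the members with shTdp-43-1. There, 38 of the 40 tested members lay below 0, with a median log2 change of -0.12, whereas 49% of all tested genes lay below 0 and their median was 0.01. The exceptions were Psme3 (0.13) and Psmd7 (0.08), named after their values were seen. The count of members below 0 fell to 31 of 40 without replicate 3 of shTdp-43-1 and to 33 of 40 with quantile normalization. With shTdp-43-2, 24 of 40 members lay below 0 (median -0.04, against -0.01 over all tested genes, of which 51.3% lay below 0). Between the hairpins, 11 of 40 lay below 0 (median 0.09, against -0.03 over all tested genes, of which 57.8% lay below 0). These counts are descriptions, since the members are not independent of each other and no set test was made.

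Bright genes as a whole also shifted. Among the 4193 tested genes of highest mean level, which hold 28 of the members, the median change was -0.05 for shTdp-43-1 and -0.03 for shTdp-43-2. Of these genes, 62.2% lay below 0 with shTdp-43-1 and 56.6% with shTdp-43-2. The 28 members there had medians of -0.12 with shTdp-43-1 (27 below 0) and -0.03 with shTdp-43-2 (16 below 0). The medians of all probe sets were 6.15 to 6.19 on the shTdp-43-1 arrays, 6.06 to 6.09 on the shTdp-43-2 arrays and 6.04 to 6.06 on the shCont arrays. With the gene values of each array centred on their median, the median of the members was -0.07 with shTdp-43-1 (31 of 40 below 0) and turned to 0.04 with shTdp-43-2 (17 of 40 below 0). The same centring moved the median of all tested genes to 0.05 with shTdp-43-1 and 0.08 with shTdp-43-2, so the median of the members lay below it with either scaling.

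The members were also counted by separation of the arrays, with no test of these counts or of their difference between the hairpins. With shTdp-43-1, 19 of 40 members had all knockdown arrays below all control arrays and 1 had all above, where 18.1% and 16.9% of all tested genes did. With shTdp-43-2 the counts were 11 below and 7 above, where 23.4% and 15.3% of all tested genes did, so the shares of the members were close to those of all genes. Between the hairpins, 11 members had all shTdp-43-2 arrays above all shTdp-43-1 arrays and 2 had all below, where 11.1% and 16.8% of all tested genes did.

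**Figure D3:**
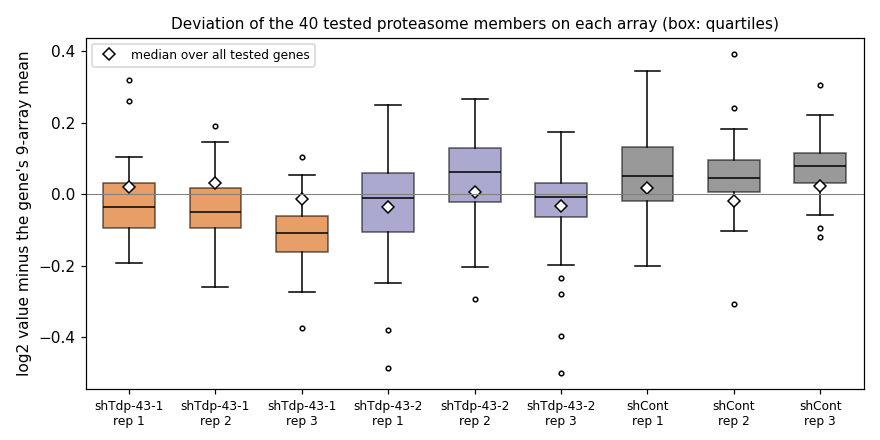
Deviation of each of the 40 tested members from its own mean over all 9 arrays (vertical axis, log2), by array, with shTdp-43-1, shTdp-43-2 and shCont from left to right. Boxes are quartiles with the median, whiskers reach 1.5 times the box, points lie beyond them, and diamonds are the medians over all tested genes. The medians of the members lie between -0.11 and -0.04 on the shTdp-43-1 arrays, between -0.01 and 0.06 on the shTdp-43-2 arrays and between 0.05 and 0.08 on the shCont arrays.

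The precision sets what could have been seen. The median half-width of the 95% interval of a member was 0.18 on the log2 scale for a hairpin against shCont. Among members not called with shTdp-43-1, no interval reached beyond -0.43 or 0.33, and among those not called with shTdp-43-2 none reached beyond -0.49 or 0.46. At an unadjusted p under 0.05, 9 of 40 members passed with shTdp-43-1, where 27.6% of all tested genes did, and 7 of 40 with shTdp-43-2, where 33.5% did. Neither share of the members was above that of all genes.

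Members moved together to differing degrees. Over the 9 arrays, the correlation of a member with the mean of the other members had a median of 0.50, with Psma7 highest at 0.88 and Psme3 lowest at -0.34, against a median of 0.09 for all tested genes with the mean of the members. These arrays share the 3 groups and the scaling, so the values describe the arrays and carry no test.

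**Figure D4:**
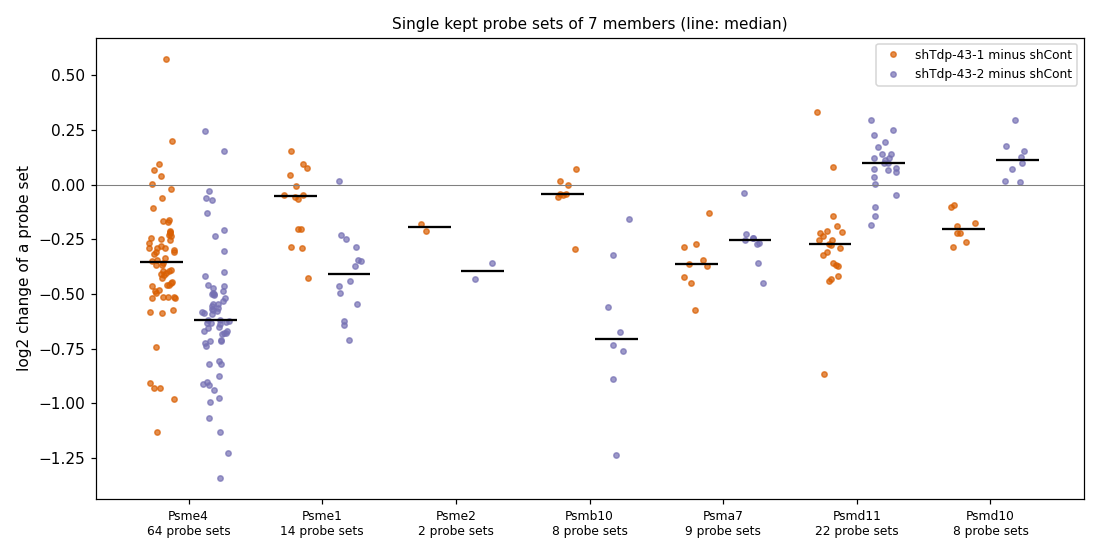
Log2 change of each kept probe set (points, vertical axis) of the 6 called members and of Psme2, for shTdp-43-1 minus shCont (left of each pair) and shTdp-43-2 minus shCont (right of each pair), with medians as lines. Points are spread sideways for view. Of the 64 probe sets of Psme4, 58 lie below 0 with shTdp-43-1 and 62 with shTdp-43-2, and those of Psmb10 lie near 0 with shTdp-43-1 and at a median of -0.70 with shTdp-43-2.

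Single exons were looked at in the 591 kept probe sets of the tested members. Usage is the change of a probe set relative to the rest of its gene. By limma's diffSplice, 4 probe sets were called with shTdp-43-1 and 5 with shTdp-43-2, where 0.494% and 1.24% of 248701 probe sets were called. With shTdp-43-1 they were 2 probe sets of Psme4, 1 of Psma6 and 1 of Psmc3, and with shTdp-43-2 they were 3 of Psme4, 1 of Psmb10 and 1 of Psmc6. A first probe set of Psme4 had lower usage with both hairpins (-0.79 with shTdp-43-1 and -0.75 with shTdp-43-2). Another had higher usage with both (0.95 with shTdp-43-1 and 0.86 with shTdp-43-2), and the last had higher usage by 0.77 with shTdp-43-2. The probe set of Psma6 read 8.04, 7.88 and 7.86 with shTdp-43-1, 8.46, 8.82 and 8.50 with shTdp-43-2, and 8.73, 8.83 and 8.71 with shCont (usage -0.70 with shTdp-43-1, diffSplice adjusted p = 0.00107). The shTdp-43-1 arrays were lower than all others on this exon. None of these calls is taken as a result, because diffSplice pools the spread over a gene's probe sets. With a spread of its own for each probe set, 0 of 591 were called with either hairpin by limma. That test called only 0.00523% (shTdp-43-1) and 0.151% (shTdp-43-2) of all probe sets, so 0 of 591 does not show unchanged usage. By it, 28 and 23 members' probe sets had an unadjusted p under 0.05, with no count over all probe sets beside them. The adjusted p for the Psma6 probe set with shTdp-43-1 was 0.177 (limma).

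Other genes of the pathway were taken from a list of 33 partners of the proteasome, of which 25 were tested. With shTdp-43-1, 1 was called higher (Ube3c) and 1 lower (Ubqln4). With shTdp-43-2, 2 were called higher (Nfe2l1 and Nfe2l2) and 2 lower (Ubqln4 and Ddi2). These are 8% and 16% of the tested partners, where 11.1% and 21.9% of all tested genes were called. None of the 5 tested assembly factors Psmg1 to Psmg4 and Pomp was called.

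Ubqln4, a shuttle that brings ubiquitinated proteins to the proteasome, read 10.49, 10.37 and 10.31 with shTdp-43-1, 10.25, 10.23 and 10.15 with shTdp-43-2, and 10.77, 10.64 and 10.65 with shCont. All 3 groups were apart, with shTdp-43-2 lowest. Ubqln4 was at 71.8% of its shCont level under shTdp-43-2 (log2 change -0.48 ± 0.081 SE, with a limma adjusted p of 0.00159), called under all 19 settings. With shTdp-43-1 it was at 81.4% (-0.30 ± 0.081 SE, with a limma adjusted p of 0.0377), a call lost under 10 of 19 settings. Among single arrays, it was lost without replicate 2 (0.110) or 3 (0.130) of shTdp-43-1, replicate 1 of shTdp-43-2 (0.0501), or replicate 1 (0.145), 2 (0.0844) or 3 (0.0719) of shCont.

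Nfe2l1 and Nfe2l2 are the transcription factors known to drive proteasome genes, the first when proteasome activity is low and the other under oxidative stress. Nfe2l1 read 10.89, 10.85 and 10.95 with shTdp-43-1, 11.11, 11.19 and 11.14 with shTdp-43-2, and 10.80, 10.88 and 10.98 with shCont. Nfe2l2 read 9.75, 9.92 and 9.91 with shTdp-43-1, 10.21, 10.18 and 10.35 with shTdp-43-2, and 9.69, 9.66 and 10.12 with shCont. For both, the shTdp-43-2 arrays lay above all others and the shTdp-43-1 arrays overlapped with shCont. Nfe2l1 rose by 0.26 with shTdp-43-2 (limma adjusted p = 0.0308), while Nfe2l2 rose by 0.42 (limma adjusted p = 0.026). The call of Nfe2l1 was lost under 8 of 19 settings. Among single arrays, it was lost without replicate 1 (adjusted p = 0.0633), 2 (0.0759) or 3 (0.0612) of shTdp-43-2 and without replicate 1 (0.128) or 2 (0.0876) of shCont. It was also lost with the median of the probe sets (0.176) and with only the groups compared (0.0529). The call of Nfe2l2 was lost under 7 of 19 settings. Among single arrays, it was lost without replicate 1 (0.0543) or 3 (0.081) of shTdp-43-2 and without replicate 1 (0.105) or 2 (0.108) of shCont. It was also lost without a dim filter (0.071) and with the median of the probe sets (0.0572). Between the hairpins neither passed (limma adjusted p = 0.0619 and 0.0598). Under the alternatives, Nfe2l1 passed there with centred arrays (adjusted p = 0.0386), quantile normalization (0.0399) and trend and robust eBayes (0.0251), and Nfe2l2 passed under 5 settings, among them without replicate 3 of shCont (0.0184).

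Ddi2, the protease that activates Nfe2l1, read 7.18, 6.86 and 7.04 with shTdp-43-1, 6.93, 6.55 and 6.90 with shTdp-43-2, and 7.17, 7.30 and 7.09 with shCont. It fell by 0.39 with shTdp-43-2 (limma adjusted p = 0.0345), where its arrays lay below those of shCont. The call was lost without replicate 3 of shTdp-43-1 (0.0506), replicate 2 of shTdp-43-2 (0.112), or replicate 1 (0.0821) or 2 (0.126) of shCont, and also with centred arrays (-0.31, adjusted p = 0.13) and with at least 1 kept probe set (0.0622). With the median of its 4 probe sets as gene value the change was -0.07 (adjusted p = 0.807). In the mean of the hairpins Ddi2 was not called (adjusted p = 0.0847), except without replicate 1 of shTdp-43-1 (0.0468).

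Ube3c, a ubiquitin ligase that binds the proteasome, read 10.95, 10.86 and 10.87 with shTdp-43-1, 10.63, 10.68 and 10.60 with shTdp-43-2, and 10.44, 10.51 and 10.60 with shCont. The shTdp-43-1 arrays were highest. Ube3c rose to 130% of its shCont level under shTdp-43-1 (log2 change 0.38 ± 0.0763 SE, with a limma adjusted p of 0.00998). Without replicate 1 of shCont this adjusted p was 0.053.

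The labelled cell type was checked against marker genes. Of 9 neuron markers 8 were tested, with group means between 9.88 and 12.52 on the log2 scale, so the cultures carried neuronal RNA throughout. Some markers of other cell types were bright as well. The highest group mean was 11.61 among astrocyte markers (shTdp-43-1), 11.42 among those of progenitors (shTdp-43-2) and 11.38 among those of the oligodendrocyte lineage (shCont). It was 10.43 for fibroblasts and pericytes (shCont) and 8.08 for microglia (shCont). Of the 8 neuron markers, 3 (37.5%) were called with each hairpin, where 11.1% (shTdp-43-1) and 21.9% (shTdp-43-2) of all tested genes were called. The excitatory marker Neurod6 was lower with both (-0.42 with shTdp-43-1 and -0.78 with shTdp-43-2). Gad2 of inhibitory neurons was higher with both (0.69 with shTdp-43-1 and 0.65 with shTdp-43-2). Gad1 was higher with shTdp-43-1 (0.29) and lower with shTdp-43-2 (-0.32). Slc17a7, another excitatory marker of the list, went the other way from Neurod6 and was not called. Its means were 10.31 with shTdp-43-1, 10.23 with shTdp-43-2 and 9.88 with shCont, and all knockdown arrays lay above all control arrays. Of 6 markers of progenitors and dividing cells, Nes was called higher with shTdp-43-2 (0.60) and 0 were called with shTdp-43-1. Of 6 tested markers of the oligodendrocyte lineage 0 were called with either hairpin, also at an unadjusted p under 0.05. In bulk RNA, fewer cells of a type and less RNA per cell cannot be told apart. Some markers of fibroblasts and pericytes were lower with the hairpins. The linear values of these markers, summed over 7 of 8, were 3296 to 3328 on shTdp-43-1 arrays, 2533 to 2772 on shTdp-43-2 arrays and 4034 to 4084 on shCont arrays. Of these 7, 2 were called lower with shTdp-43-1 (Pdgfrb and Rgs5) and 4 with shTdp-43-2 (also Dcn and Fn1), where 5.96% and 14.1% of all tested genes were called lower. The other 3, Col1a1, Col1a2 and Col3a1, were not called, with changes of 0.14 to 0.15 with shTdp-43-1 and of 0.14 each with shTdp-43-2. The summed level was thus lower with both hairpins, as was Psme4, and lowest with shTdp-43-2, where Psmb10 and Psme1 were called lower. The part of these cells in the results of Psme4, Psmb10 and Psme1 was not tested.

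Markers of astrocytes, all 8 tested, summed to 10761 to 11594 on shTdp-43-1 arrays, 10328 to 10979 on shTdp-43-2 arrays and 11308 to 13781 on shCont arrays, with 1 of 8 called lower with shTdp-43-1 and 3 of 8 with shTdp-43-2, beside the same 5.96% and 14.1% of all tested genes. Their part in the results of the members was not tested. The sum of the 9 microglia markers was 1320 to 1752 on shTdp-43-1 arrays, 1236 to 1797 on shTdp-43-2 arrays and 1503 to 1555 on shCont arrays, and 0 of 9 were called with either hairpin, also at an unadjusted p under 0.05. A setting chosen after seeing the data left out the knockdown array highest in microglia markers in each group. There, Psmb10 was called lower with shTdp-43-2 (-0.63, limma adjusted p = 0.00532), as was Psme4 (-0.54, limma adjusted p = 0.00794). Psme1 was at the threshold (-0.39, limma adjusted p = 0.0499). In the same setting the calls with shTdp-43-1 of Psme4 (limma adjusted p = 0.0932), Psma7 (0.0756) and Psmd11 (0.0687) were lost. These calls were also lost without any 1 of the shCont arrays, so here microglia and a smaller number of arrays cannot be told apart. The part of microglia in the results of the members was not tested. No marker is listed at 0 by these arrays, which give every probe set a background level.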

How the data were processed

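RNA from 9 samples was measured on exon arrays. The authors deposited 1 log2 value per probe set and array, an RMA value from Expression Console (all exons), per the labels. The submitters' processing notes add the build mm9, and the version of the software was not given in the sources used here. RMA brings the probe intensities of all arrays to one distribution before summarizing them, which reduces changes shared by most probes and compresses dim ones. The medians of the deposited probe set values still differed, at 6.15 to 6.19 on shTdp-43-1 arrays and 6.04 to 6.06 on shCont arrays. Genes were assigned to probe sets with the platform's annotation table, with symbols updated through RefSeq (GRCm38.p6, names and promoter windows only). Gene values were fitted for all 3 groups in one model with limma 3.58.1 in R 4.3.3 (lmFit and eBayes, 6 residual degrees of freedom). Exon usage was tested with diffSplice. All were tested on simulated data, where diffSplice made more false than true calls of exon usage. An exact permutation test of 3 arrays against 3 cannot go below p = 0.1 and was not used. The members, lists and tests were chosen with earlier results of these data known. The text names Tardbp, called members, catalytic subunits and partners called against shCont; any other gene with values was named after they were seen. Alternatives changed the dim filter, scaling, summary, minimum of probe sets, eBayes settings, arrays fitted and replicate block. The number of arrays limits the precision.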

Additional observations from a re-analysis of the deposited data

Results flagged for a closer look

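The effect of the hairpins differed for 3 proteasome members and 1 partner, by the direct test of shTdp-43-2 minus shTdp-43-1 over all tested genes. These are 7.5% of the tested members and 4% of the tested partners, where 11.5% of all tested genes were called. Psmb10 differed by -0.62 ± 0.0976 SE (limma adjusted p = 0.00232), with all 3 shTdp-43-2 arrays below all 3 shTdp-43-1 arrays. Psmd11 differed by 0.36 ± 0.0711 SE (limma adjusted p = 0.00833), with all shTdp-43-2 arrays above. Psmd10 differed by 0.31 ± 0.0872 SE (limma adjusted p = 0.0388), with all shTdp-43-2 arrays above. The call of Psmd10 was lost under 12 of 19 alternative settings and that of Psmd11 under 1. Ube3c differed by -0.26 ± 0.0763 SE (limma adjusted p = 0.0485), with all shTdp-43-2 arrays below, and this call was lost under 17 of 19 alternative settings. Those 17 include every setting that leaves out 1 array, with adjusted p-values of 0.0564 to 0.143. Tardbp itself differed between the hairpins by 0.03 (95% interval -0.38 to 0.43, limma adjusted p = 0.956).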

How the results depend on the processing

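Each result was recomputed under up to 19 alternatives, and no named result reversed a called direction. Members called with shTdp-43-1, 3 as reported, numbered 0 with dim probe sets cut at the 25th percentile, without a dim filter and with the median of the probe sets, 1 with at least 1 kept probe set, 5 with trend and robust eBayes, and 0 to 3 when 1 array was left out. With shTdp-43-2 (3 as reported) they numbered 5 with centred arrays (2 higher, 3 lower), 5 with trend and robust eBayes, and 2 to 4 with 1 array left out. In the mean of the hairpins (3) they numbered 6 with trend and robust eBayes and 1 to 4 with 1 array left out. Between the hairpins (3) they numbered 1 without a dim filter, 5 with quantile normalization, 5 with trend and robust eBayes, and 2 to 3 with 1 array left out. With arrays centred, the median change of the members was -0.0747 with shTdp-43-1, 0.0425 with shTdp-43-2, -0.0158 in the mean of the hairpins and 0.127 between the hairpins, where the medians over all tested genes were 0.0504, 0.0765, 0.0619 and 0.00772 in the same order. With 1 array left out, those medians ranged from -0.131 to -0.093, from -0.069 to -0.0285, from -0.0979 to -0.074 and from 0.0447 to 0.109 (the last was 0.112 without the 2 knockdown arrays highest in microglia markers). Centring also turned the split of calls over all genes to 1214 higher and 884 lower with shTdp-43-1 (865 and 1000 as reported) and to 2178 and 1717 with shTdp-43-2 (1301 and 2366). Partners called with shTdp-43-1 (2) numbered 1 without a dim filter, with the median of the probe sets and with at least 1 probe set, and 3 with the replicate block and with trend and robust eBayes. With shTdp-43-2 (4) they numbered 1 with the median of the probe sets, 3 with at least 1 probe set, without a dim filter and with only the groups compared, 5 with quantile normalization and 6 with trend and robust eBayes. In the mean (2) they numbered 1 with the 25th percentile, without a dim filter and with the median, and 3 with trend and robust eBayes. Between the hairpins (1) they numbered 0 with the 25th percentile, without a dim filter and with at least 1 probe set, 2 with quantile normalization and 4 with trend and robust eBayes. Leaving out 1 array gave 0 to 2, 1 to 4, 1 to 3 and 0 to 1 partners in the same order of comparisons. Probe sets called for usage (4 with shTdp-43-1, 5 with shTdp-43-2, 5 in the mean, 2 between the hairpins) numbered 2, 3, 1 and 1 with dim probe sets cut at the 75th percentile and 0 in each with an own spread for each probe set, a setting chosen after seeing the data. The replicate numbers were not taken as pairing: 6 of 9 same-numbered pairs correlated above 0.1 (r from -0.38 to 0.59), and 5 of 9 arrays correlated best with their own number. With the replicate number as a block, 5 members were called between the hairpins, Psma7 passed with shTdp-43-2 (limma adjusted p = 0.0489), Psme1 passed in the mean (0.0375) and between the hairpins (0.0355), and usage calls numbered 7, 10 and 9 against shCont. Leaving out the 2 knockdown arrays highest in microglia markers, also chosen after seeing the data, left 0 members called with shTdp-43-1. The causes of these moves were not tested.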
